A study of Mus musculus with 2 samples.

Results

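Many enzymes of energy metabolism exist as a form used by most body cells and a second form, encoded by a separate gene, that is made in the testis. The genes described here are 5 such pairs, 10 of the 36547 genes listed in either of the deposited tables: Pgk1 and Pgk2 (phosphoglycerate kinase), Ldha and Ldhc (lactate dehydrogenase), Gapdh and Gapdhs (glyceraldehyde-3-phosphate dehydrogenase), Pdha1 and Pdha2 (the E1 alpha subunit of pyruvate dehydrogenase), and Aldoa and Aldoart1 (aldolase A and an aldolase A retrogene). They were chosen by name, as the somatic and the testis form of the same enzyme, and all 10 were listed in both tables. The question put to the data was where along germ cell development each pair passed from the somatic to the testis form, and whether that differed in testis that lacked Alkbh5 (knockout, KO) from testis that had it (wild type, WT).

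RNA was measured in single testis cells from C57BL/6 mice aged 12 weeks, with 1 library of genotype WT and 1 of genotype Alkbh5-/-. ALKBH5 removes the N6-methyladenosine mark from RNA, and KO males came from crosses of heterozygous mice, so that every cell type of the KO testis carried the deletion. The introduction describes 1 mouse per genotype while the methods describe testes from 3 mice, so each library was counted here as 1 sample. With 1 library per genotype no test between WT and KO was possible, and differences below are given with intervals that cover counting error only.

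Germ cells pass through mitosis as spermatogonia, meiosis as spermatocytes and a remodelling phase as spermatids that first are round, then elongate and condense their nucleus. Glycolysis splits glucose to pyruvate, which lactate dehydrogenase exchanges with lactate and pyruvate dehydrogenase passes on to the mitochondria. Sperm draw on glycolysis in the tail for motility. Pgk1 and Pdha1 lie on the X chromosome, which is transcriptionally silenced during male meiosis, and their testis forms are intronless copies on other chromosomes.

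The libraries held 5756 WT and 7012 KO cells, with a total of 80283221 and 82056760 unique molecular identifiers (UMIs, each standing for 1 captured RNA molecule) and a median of 10906 and 9118 UMIs per cell. Alkbh5, on chromosome 11, had 607 UMIs in the library labelled WT and 5 in the library labelled KO. The cells were grouped without using the 10 genes or other genes of the pathway, and 15 clusters were assigned to cell types by marker genes. The names are rebuilt and may differ from those of the study. The cluster of early round spermatids and both clusters of mid round spermatids had none of their markers among their 10 leading genes, although all 18 and all 19 listed markers were detected and higher there. Germ cells fell into 8 classes, with 188 WT and 1064 KO spermatogonia-like, 34 and 122 early spermatocyte-like, 748 and 683 late spermatocyte-like, 806 and 763 early round spermatid-like, 1054 and 991 mid round spermatid-like, 332 and 321 late round spermatid-like, 1859 and 1165 elongating spermatid-like and 563 and 153 condensing spermatid-like cells. The libraries shared 45 cell barcodes. Levels are given as CPM, the summed UMIs of a gene per 1000000 UMIs of that class and library, with exact Poisson intervals at 95%. CPM was not divided by transcript length, so levels are compared for 1 gene between classes and libraries, and the share of a form in its pair is a share of UMIs.

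UMIs of the testis forms were also found in somatic cells, and the part of free RNA and of cells captured together in them was not tested. In Leydig-like cells, which make testosterone and are not known for the testis forms, Ldhc stood at 1045 CPM in WT and 475 in KO, and Pgk2 at 184 and 99.3. Sertoli-like cells of the WT library, the supporting cells of the tubule, held 962 CPM of Pgk2 and 1422 of Gapdhs, against 240 and 351 in KO. The markers of condensing spermatids stood in these WT Sertoli-like cells at 32.6% of their level in condensing spermatid-like cells and in the KO ones at 7.37%. Testis-form levels in early germ cells were therefore read against Leydig-like cells of the same library. There were 94 WT and 1168 KO Leydig-like, 55 and 485 Sertoli-like and 22 and 73 macrophage-like cells. Only 33 of the 94 WT Leydig-like cells had a Pgk2 UMI. The intervals do not cover such spread between cells, so a level above that of Leydig-like cells is less certain than its interval shows.

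**Figure D1:**
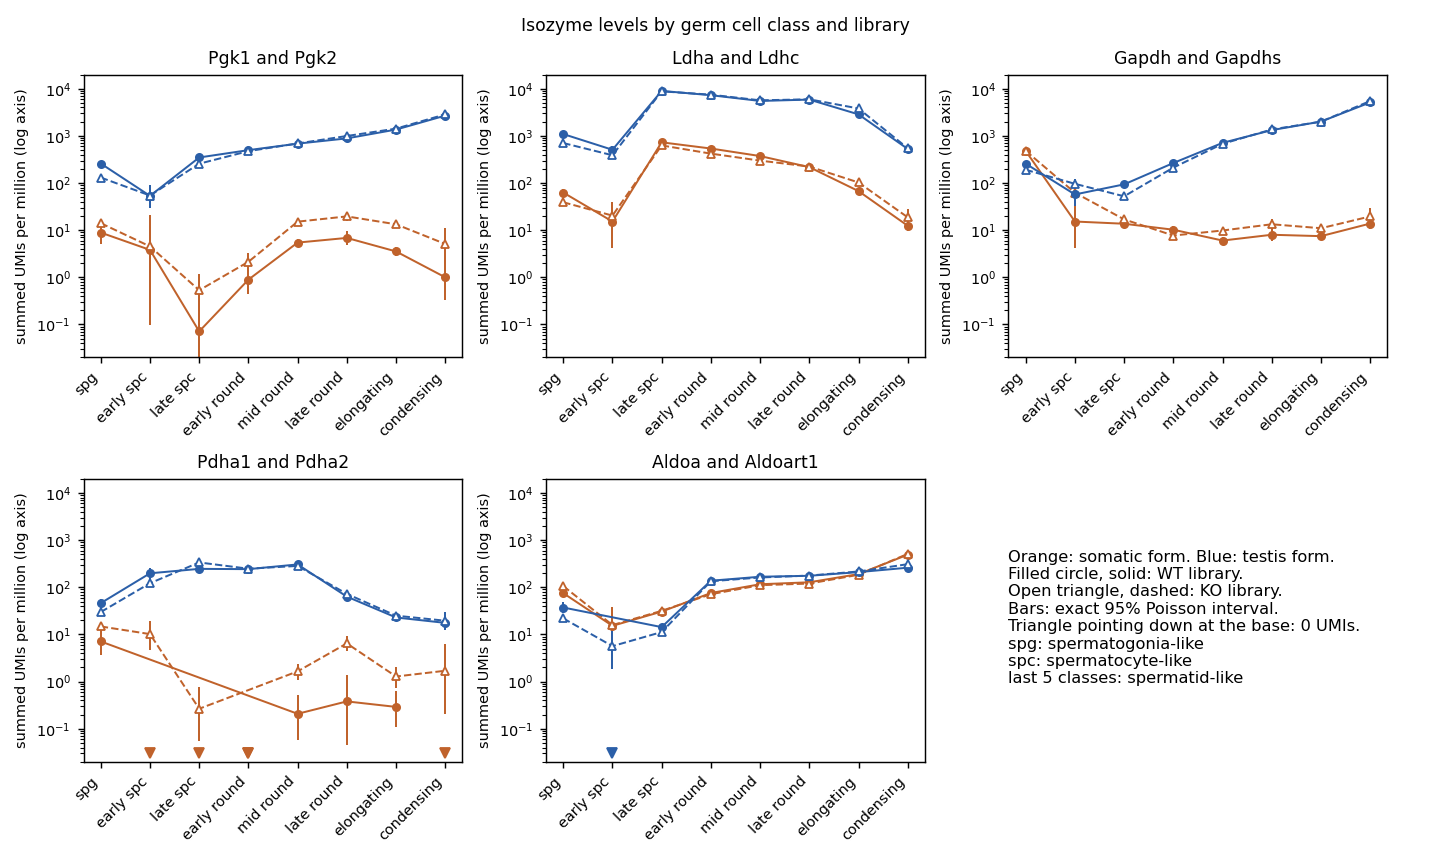
Level of each gene in the 8 germ cell classes, as CPM on a log axis, with the somatic form in orange, the testis form in blue, WT as filled circles and KO as open triangles; bars are exact 95% Poisson intervals and down-pointing triangles mark 0 UMIs. Gapdhs and Pgk2 climb to condensing spermatids, Ldha and Ldhc both peak in late spermatocytes, Pdha2 peaks in late spermatocytes or mid round spermatids, and Aldoa climbs alongside Aldoart1.

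In the phosphoglycerate kinase pair the testis form climbed through every class after early spermatocytes, and the somatic form gave few UMIs in any germ cell class. Pgk1 and Pgk2 encode the enzyme of the ATP-yielding step that follows Gapdh. Pgk1 lies on the X chromosome (GRCm38 chrX:106187100-106203699, plus strand, up to 11 exons) and Pgk2 is a gene of 1 exon (chr17:40207015-40208640, minus strand). The stretches ahead of their start sites, without the 31 bases that GENCODE counts as exon for Pgk2, are shown to let the intronless copy be compared with its parent, with capitals marking the letters CCAAT on either strand:

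Pgk1 (GRCm38.p6 chrX:106186980-106187099, plus strand): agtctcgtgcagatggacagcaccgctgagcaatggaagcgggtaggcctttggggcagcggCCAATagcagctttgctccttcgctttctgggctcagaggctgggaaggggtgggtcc
Pgk2 (GRCm38.p6 chr17:40208641-40208760, minus strand): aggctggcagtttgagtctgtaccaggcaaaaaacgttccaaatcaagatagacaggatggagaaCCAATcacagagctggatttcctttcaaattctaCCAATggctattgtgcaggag

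CCAAT was found once in the 250 bases ahead of Pgk1 and at 2 places ahead of Pgk2, and 33.8% of all 32851 windows of that length in the RefSeq table held it on either strand. The window of Pgk2 had 42% G and C against 62.8% for Pgk1 and a median of 52.4% over all windows. A match describes the letters only.

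Pgk2 was lowest in early spermatocyte-like cells, with 53.4 CPM (29.2 to 89.6) in WT and 54.3 (40.1 to 72) in KO, below the Leydig-like level of each library. It stood at 348 and 257 CPM in late spermatocytes, 498 and 474 in early round, 684 and 691 in mid round, 885 and 994 in late round, 1361 and 1424 in elongating and 2691 and 2861 in condensing spermatids, WT first. The intervals of neighbouring classes in the order of level did not overlap in either library. The level was 50.4-fold higher in condensing spermatids than in early spermatocytes in WT and 52.7-fold higher in KO.

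Pgk1 gave few UMIs anywhere in the germ line. It stood at 8.89 CPM (4.98 to 14.7) in WT and 14.1 (11.7 to 16.9) in KO spermatogonia-like cells. In late spermatocytes it was nearly absent, with 1 UMI among 748 WT cells and 6 among 683 KO cells. It was found again in spermatids, at 0.893 CPM in WT and 2.13 in KO early round, 5.45 and 15.2 in mid round, 6.85 and 19.6 in late round, 3.54 and 13.3 in elongating and 1 and 5.11 in condensing spermatids. Leydig-like cells held 43 CPM in WT and 27.4 in KO.

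Pgk2 took 96.7% of the pair's UMIs in WT spermatogonia-like cells and 90.3% in KO, against 81% and 78.4% in Leydig-like cells. Without doublets called by Scrublet its share in spermatogonia-like cells was 93.3% (88.8 to 96.4) in WT and 78.6% (74.6 to 82.2) in KO. A high share in this class is therefore not read as use of the testis form. From late spermatocytes on its share lay between 99.2% and 99.98% in WT and between 97.9% and 99.8% in KO. Pgk2 stood in spermatogonia-like cells at 259 CPM in WT and 131 in KO, against 184 and 99.3 in Leydig-like cells, and at 137 and 51.2, against 152 and 56.6 in Leydig-like cells, after removal of called doublets, among them the 26 WT and 106 KO spermatogonia-like cells (doublets as called by Scrublet). Only 35.1% of WT and 22.7% of KO spermatogonia-like cells had a Pgk2 UMI, at a median of 7770 and 6887 UMIs per cell, against 35.1% and 16.3% of Leydig-like cells at 10004 and 7874. The WT share was that of Leydig-like cells and the KO share was above it.

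The glyceraldehyde-3-phosphate dehydrogenase pair passed most fully from one form to the other, and with a gap between them. Gapdh (GRCm38 chr6:125161715-125166467, minus strand) encodes the enzyme of the oxidation step of glycolysis, and Gapdhs (chr7:30729775-30743681, minus strand, up to 11 exons) encodes the form bound to the fibrous sheath of the sperm tail. The stretch ahead of Gapdhs is shown because it held 2 copies of a variant of the cyclic AMP response element, a sequence bound by CREM and other factors, and capitals mark TGACNTCA on either strand:

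Gapdhs (GRCm38.p6 chr7:30743682-30743801, minus strand): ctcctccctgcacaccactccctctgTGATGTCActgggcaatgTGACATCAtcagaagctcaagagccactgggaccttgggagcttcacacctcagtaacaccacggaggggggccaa

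These began 94 and 76 bases ahead of the start site. The letters TGACNTCA, which were added to the search after this sequence had been read, were in 7.49% of all windows, and the full element TGACGTCA in 1.55%.

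Gapdh was the main form in spermatogonia-like cells, with 479 CPM (446 to 513) in WT and 481 (467 to 496) in KO, close to 469 and 474 in Leydig-like cells. It was 15.3 CPM in WT and 62.2 in KO early spermatocytes and 13.7 and 16.9 in late spermatocytes. In the 5 spermatid classes it lay between 6.02 and 13.8 CPM in WT and between 7.7 and 19.6 in KO. Gapdh was thus detected in 94.1% of WT and 92.3% of KO spermatogonia-like cells but in 20.5% and 20.4% of late spermatocytes, which had more UMIs per cell (a median of 16794 and 14532).

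Gapdhs was at 57.2 CPM in WT and 96.2 in KO early spermatocytes and at 93.7 and 52.3 in late spermatocytes, all below the 153 and 134 of Leydig-like cells. It was 266 and 212 CPM in early round, 711 and 679 in mid round, 1325 and 1368 in late round, 2009 and 2004 in elongating and 5126 and 5489 in condensing spermatids. Early round spermatids were the earliest class after the spermatocytes to lie above Leydig-like cells in both libraries. In the spermatogonia-like cells it was 257 and 191 CPM, and 142 and 69.7 without called doublets, against 111 and 82.2 in Leydig-like cells.

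The share of Gapdhs in the pair was 34.9% (32.3 to 37.7) in WT and 28.4% (27.2 to 29.6) in KO spermatogonia-like cells, 87.2% and 75.5% in late spermatocytes, 96.3% and 96.5% in early round and 99.7% and 99.6% in condensing spermatids. Without called doublets it was 20.8% and 11.6% in spermatogonia-like cells, 65.8% (61.5 to 69.8) and 51% (45.6 to 56.3) in late spermatocytes and 95.9% and 96.6% in early round spermatids. Gapdhs itself was then 26.5 CPM in WT and 16.9 in KO late spermatocytes, after removal of 57 and 38 cells, so that most of its UMIs in this class lay in called doublets. From the spermatogonia-like to the condensing class it was 64.8 percentage points higher in WT (62.1 to 67.4) and 71.2 in KO (70 to 72.4). The sum of both genes was 736 CPM in WT and 672 in KO spermatogonia-like cells, 107 and 69.2 in late spermatocytes and 5140 and 5508 in condensing spermatids, so that the pair had a trough in meiosis. When each cell was thinned to 5729 UMIs, 76.6% of WT and 80.9% of KO late spermatocytes had a UMI of neither gene, and 1.23% and 1.72% had both.

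**Figure D2:**
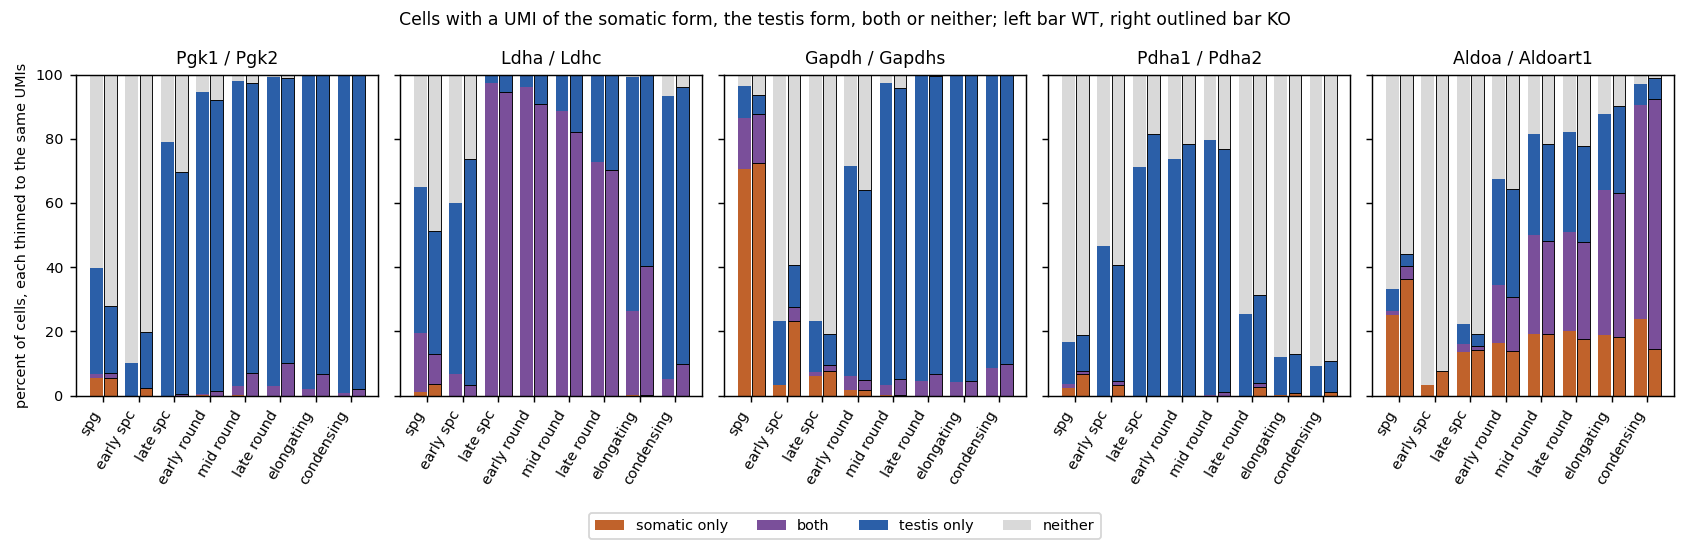
Percent of cells with a UMI of the somatic form only, of both forms, of the testis form only or of neither, with every cell thinned to 5729 UMIs; the left bar of each class is WT and the outlined right bar KO. The Gapdh pair shows grey bars (neither form) in most spermatocytes, the Ldh pair shows both forms in most late spermatocytes, and the Aldo pair gains cells with both forms up to the condensing class.

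The lactate dehydrogenase pair did not pass from one form to the other: both genes were highest in the same class. Ldha (GRCm38 chr7:46841475-46855627) and Ldhc (chr7:46861203-46878142) are neighbours on the plus strand. The stretches ahead of their starts are shown since the genes lie side by side and shared a peak, with capitals marking GGGCGG and TGACGTCA on either strand:

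Ldha (GRCm38.p6 chr7:46845684-46845803, plus strand): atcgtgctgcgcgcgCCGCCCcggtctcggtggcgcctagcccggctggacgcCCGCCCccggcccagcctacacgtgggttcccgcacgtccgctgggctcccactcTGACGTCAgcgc
Ldhc (GRCm38.p6 chr7:46861083-46861202, plus strand): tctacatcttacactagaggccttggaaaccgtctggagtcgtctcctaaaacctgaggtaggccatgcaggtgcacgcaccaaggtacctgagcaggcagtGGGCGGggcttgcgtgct

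Both held GGGCGG, as did 32.7% of all windows. TGACGTCA began 12 bases ahead of the RefSeq start of Ldha. Its shorter core TGACG, in 17.8% of windows, was found at 61 and 47 bases ahead of the RefSeq start of Ldhc, in or next to the 60 bases that GENCODE counts as exon and that are left out above. TAACNG, the letters of the MYB site, was present ahead of Ldhc and in 19.8% of windows.

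Ldhc was the most abundant of the 10 genes in UMIs. It stood at 507 CPM in WT and 388 in KO early spermatocytes and at 8983 (8934 to 9033) and 8809 (8755 to 8864) in late spermatocytes. It was 7291 and 7472 CPM in early round, 5506 and 5677 in mid round, 5885 and 5965 in late round, 2858 and 3813 in elongating and 529 and 547 in condensing spermatids. Every WT and KO late spermatocyte had at least 1 Ldhc UMI. In condensing spermatids Ldhc was below the 1045 CPM of Leydig-like cells in WT and above the 475 in KO. In spermatogonia-like cells it stood at 1093 CPM in WT, within the interval of Leydig-like cells (984 to 1109), and at 705 in KO, above the 475 of KO Leydig-like cells. Without called doublets it was 470 and 273 in spermatogonia-like cells, against 981 and 255 in Leydig-like cells.

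Ldha, known as the muscle-type subunit, was 62.8 CPM in WT and 39.1 in KO spermatogonia-like cells, 15.3 and 20.4 in early spermatocytes and 730 (716 to 744) and 627 (613 to 642) in late spermatocytes. It was 539 and 420 CPM in early round, 373 and 299 in mid round, 217 and 224 in late round, 67.5 and 102.8 in elongating and 12.4 and 18.7 in condensing spermatids. Its late spermatocyte level was above the 123 and 76.2 CPM of Leydig-like cells. The share of Ldhc among the pair's UMIs varied little, from 92.5% in late spermatocytes to 97.7% in condensing spermatids in WT and from 93.4% in late spermatocytes to 97.4% in elongating spermatids in KO. After thinning, 97.3% of WT and 94.5% of KO late spermatocytes had UMIs of both genes, and 5.22% and 9.71% of condensing spermatids did.

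Leaving aside the spermatogonia-like cells, Pdha2 was the only testis form above its Leydig-like level in the early spermatocytes of both libraries. Pdha1 (GRCm38 chrX:160122209-160138413, minus strand, up to 11 exons) and the gene of 1 exon Pdha2 (chr3:141210004-141212355, minus strand) encode the subunit that binds pyruvate for entry to the citrate cycle. The stretch ahead of Pdha2 is shown as the only member window with the letters TATAAA, in capitals, which 12.4% of windows held on either strand:

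Pdha2 (GRCm38.p6 chr3:141212356-141212475, minus strand): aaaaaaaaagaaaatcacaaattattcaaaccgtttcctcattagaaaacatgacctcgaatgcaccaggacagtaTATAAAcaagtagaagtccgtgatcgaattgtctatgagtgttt

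The letters began 44 bases ahead of the start, and the window had 31.6% G and C, the lowest of the 9 members with a window. Aldoart1 had none in the RefSeq table.

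Pdha2 stood at 46.2 CPM in WT and 29.9 in KO spermatogonia-like cells, against 40.2 and 12.6 in Leydig-like cells. Without called doublets it was 24.3 and 18.3 CPM, against 36 and 6.94 in Leydig-like cells. It was 198 CPM (148 to 260) in WT and 122 (100 to 148) in KO early spermatocytes, 246 and 337 in late spermatocytes, 243 and 248 in early round and 306 and 285 in mid round spermatids. It was lower afterwards, at 63.6 and 72.6 CPM in late round, 22.9 and 25.1 in elongating and 17.6 and 19.6 in condensing spermatids. In early spermatocytes, where Pgk2, Ldhc, Gapdhs and Aldoart1 were below their Leydig-like levels in both libraries (without called doublets Ldhc in KO was above it, at 384 against 255 CPM), 61.8% of WT and 41.8% of KO cells had a Pdha2 UMI, against 20.2% and 5.99% of Leydig-like cells. Macrophage-like cells of this suspension held 160 CPM of Pdha2 in WT (118 to 213) and 111 in KO (88.7 to 137), intervals that overlapped those of early spermatocytes. The levels of late spermatocytes and of early and mid round spermatids lay above these intervals, and those of the later spermatids below them.

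Pdha1 had 12 UMIs in WT and 124 in KO spermatogonia-like cells, 7.11 and 14.8 CPM. No UMI was found in WT early or late spermatocytes or early round spermatids, with exact intervals that reach 14.1, 0.263 and 0.299 CPM. KO had 9 UMIs in early spermatocytes, 3 in late spermatocytes and 0 in early round spermatids. In the later spermatid classes Pdha1 stood at 0.208 CPM in WT and 1.65 in KO mid round, 0.381 and 6.47 in late round, 0.291 and 1.29 in elongating and 0 and 1.7 in condensing spermatids. Pdha2 took 86.7% of the pair in WT and 66.9% in KO spermatogonia-like cells, against 67.7% and 30.6% in Leydig-like cells. Without called doublets the spermatogonia-like shares were 76.2% (60.6 to 88) and 53% (46.6 to 59.4). In the later WT classes its share was between 98.8% and 100%. Pdha2 itself was then 22.9 and 17.6 CPM in WT elongating and condensing spermatids, against 40.2 in Leydig-like cells. The KO levels were 25.1 and 19.6 CPM against 12.6. In KO the share was 91.8% in late round and 95.1% in elongating spermatids.

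The aldolase pair shared its UMIs. Aldolase splits fructose 1,6-bisphosphate. Aldoa (GRCm38 chr7:126795234-126800751, minus strand, with a second annotated gene of the same symbol next to it) and the retrogene Aldoart1 (chr4:72850583-72852634, minus strand, 1 exon) have an exact run of 86 shared bases. Reads wholly within that run cannot be told apart by sequence. Per the methods reads were 150 bases long, so only reads trimmed to a shorter length could lie within it. The longest runs shared within the other 4 pairs were 20 to 22 bases.

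Aldoa stood at 75.3 CPM in WT and 106 in KO spermatogonia-like cells, 15.3 and 15.8 in early and 30.6 and 31.7 in late spermatocytes. It was 75.8 and 71.5 CPM in early round, 116 and 111 in mid round, 128 and 120 in late round, 191 and 185 in elongating and 492 and 512 in condensing spermatids. Leydig-like cells had 669 and 644 CPM. Its level was thus higher in condensing spermatids than in any other germ cell class.

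Aldoart1 stood at 37.3 CPM in WT and 22 in KO spermatogonia-like cells and at 14.3 and 11.3 in late spermatocytes, and had 0 and 5 UMIs in early spermatocytes. Without called doublets it was 20.5 and 9.34 CPM in spermatogonia-like cells and 6.65 and 6.4 in late spermatocytes. It was 138 and 135 CPM in early round, 168 and 162 in mid round, 176 and 178 in late round, 210 and 217 in elongating and 261 and 310 in condensing spermatids, with 35.4 and 14.3 in Leydig-like cells. Its share of the pair was 31.9% in WT and 26.2% in KO late spermatocytes, 64.5% and 65.3% in early round and 34.6% and 37.7% in condensing spermatids. The share was thus highest in early round spermatids in both libraries and lower again when Aldoa climbed. A second retrogene, Aldoart2, from the pathway list, stood at 253 CPM in WT and 218 in KO early round and 695 and 764 in condensing spermatids. The 3 aldolase genes together were at 76.4 and 64.4 CPM in late spermatocytes and 1448 and 1587 in condensing spermatids.

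**Figure D3:**
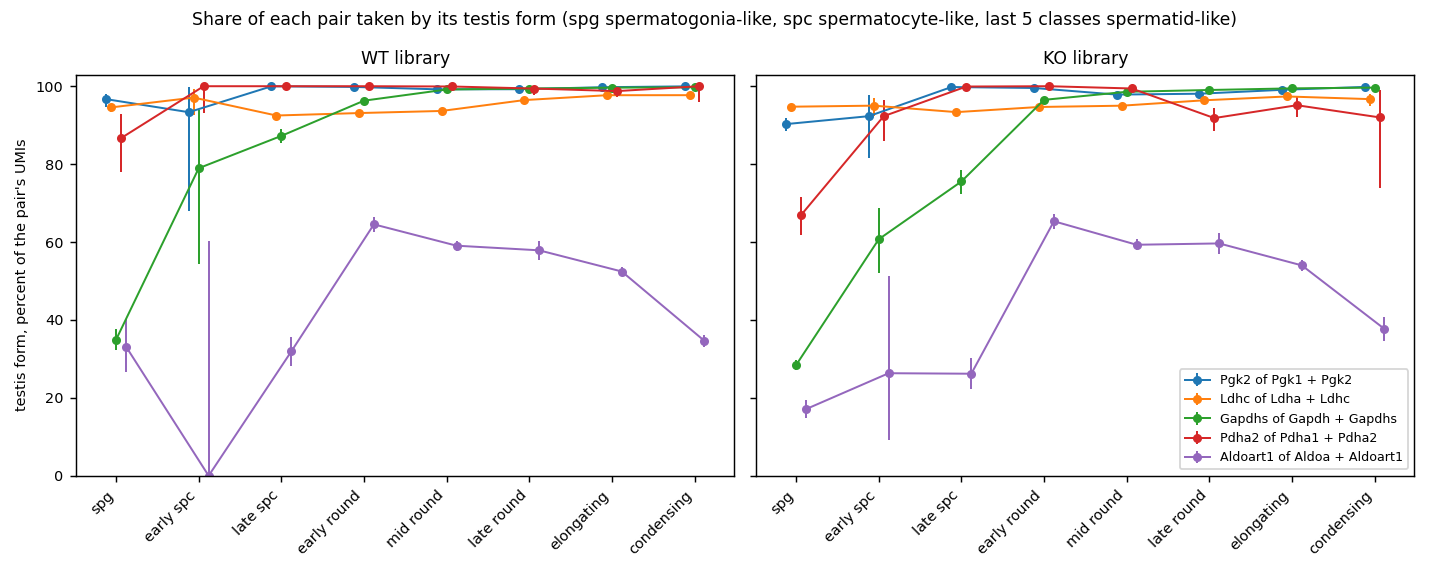
Percent of each pair's UMIs taken by the testis form in the 8 germ cell classes, WT at left and KO at right, with exact 95% Clopper-Pearson intervals. The Gapdhs line climbs from 34.9% (WT) and 28.4% (KO) to over 96% in early round spermatids, the Ldhc and Pgk2 lines stay near the top, and the Aldoart1 line peaks in early round spermatids.

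In the order of development, Pdha2 was above Leydig-like cells in early spermatocytes, Ldhc and Pgk2 in late spermatocytes, and Gapdhs and Aldoart1 in early round spermatids, in both libraries and leaving aside the spermatogonia-like cells. Against the highest of Leydig-, Sertoli- and macrophage-like cells the classes were late spermatocytes for Ldhc and Pdha2 in both libraries, elongating spermatids in WT and mid round spermatids in KO for Pgk2 and Gapdhs, and elongating spermatids in WT and early round spermatids in KO for Aldoart1. Across the 30 points formed by the 15 clusters and both libraries, log2(CPM + 1) of Pgk2 and Gapdhs had a Pearson r of 0.93, that of Gapdhs and Aldoart1 0.89 and that of Pgk2 and Aldoart1 0.87. The points share libraries and are not independent.

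Comparing KO with WT within a class, a gene was counted as detected when 25% or more of the cells in one or the other library held a UMI of it, and as past the fold when its CPM differed at least 1.5-fold. Of the 80 combinations of the 10 genes with 8 classes, 46 were detected in this sense, 4 were lower in KO and 2 higher. Some of those past the fold were detected only through the library where the gene was higher, which favours such calls. These were Pgk2 in spermatogonia-like cells (35.1% of WT and 22.7% of KO cells), Gapdhs in late spermatocytes (27.7% and 19.2%) and Gapdh in early spermatocytes (11.8% and 25.4%). None of the 23 detected combinations of a testis form with a spermatid class was past the fold, and their log2 ratios of KO to WT lay between -0.32 and 0.42 with a median of 0.04. Over all detected genes the share past the fold was also small in most classes, from 6.36% in early round to 25.3% in condensing spermatids. A count of 0 in 23 is therefore not read as a trait of the testis forms.

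**Figure D4:**
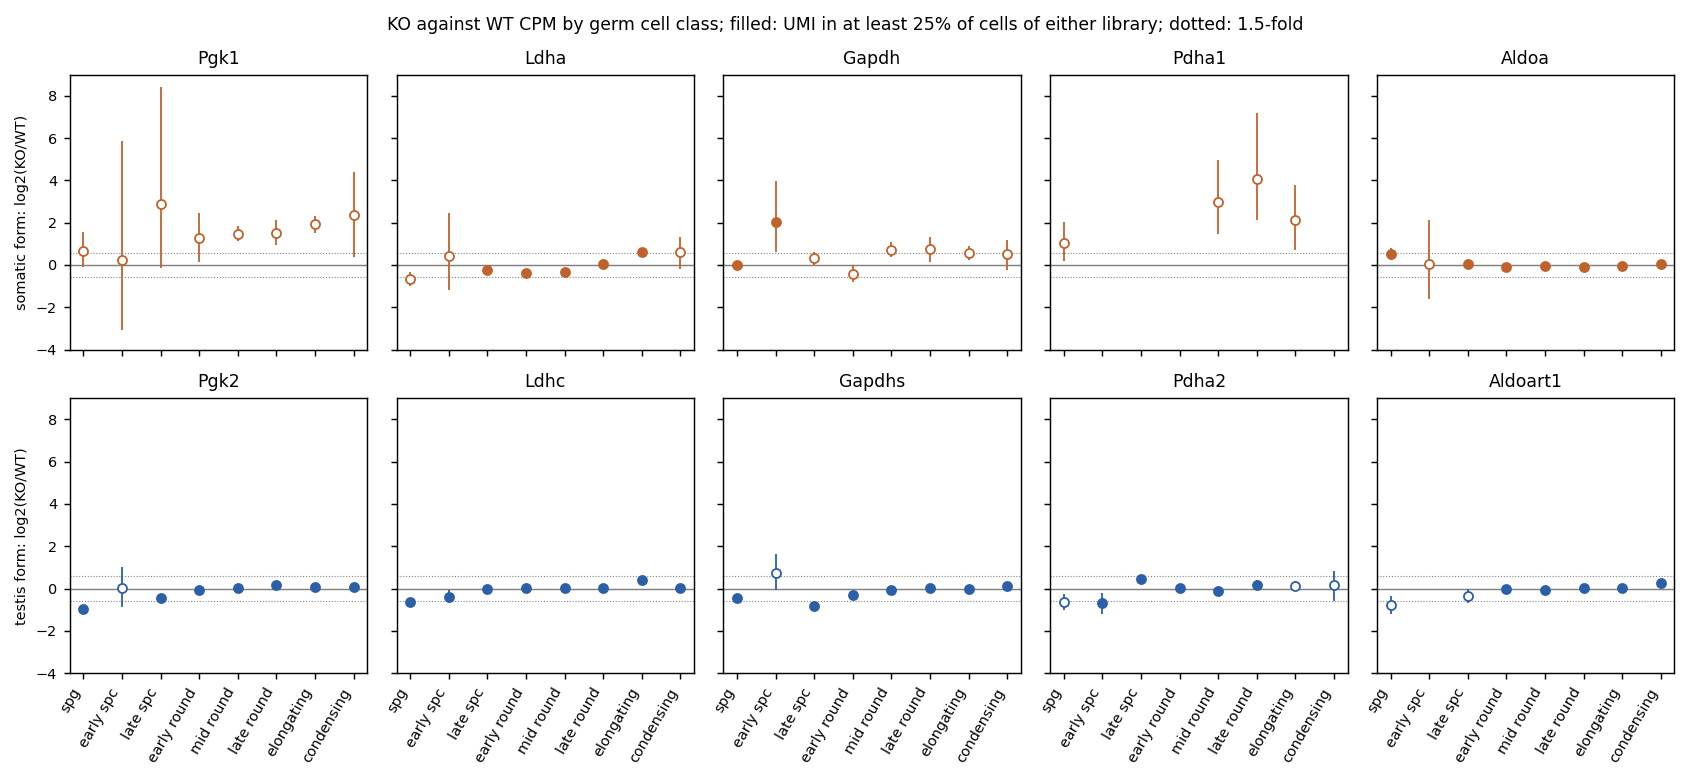
Log2 ratio of KO to WT CPM for each gene in the 8 germ cell classes, with exact 95% intervals for counting error; somatic forms are above in orange and testis forms below in blue, filled where 25% or more of the cells in one or the other library held a UMI, and dotted lines mark 1.5-fold. Testis forms lie between the dotted lines in all spermatid classes, while open points of Pgk1 and Pdha1 lie above them.

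In spermatogonia-like cells 9.41% of the 4220 detected genes were past the fold in either direction, and 2 of the 5 detected members were, both lower in KO: Pgk2 (log2 ratio -0.99, -1.15 to -0.82) and Ldhc (-0.63, -0.71 to -0.56). Both genes were also lower in KO Leydig-like cells, Pgk2 by -0.89 and Ldhc by -1.14. There, 18.7% of all detected genes and 4 of 7 detected members were past the fold, with Pgk1 and Ldha the other 2, all lower in KO. Pgk1 (33% of WT and 20.7% of KO cells) and Pgk2 (35.1% and 16.3%) were detected there through WT only. Spermatid markers were also lower in KO spermatogonia-like cells. Those of condensing spermatids stood there at 5.74% of their own level in WT and 3.75% in KO, and those of mid round spermatids at 1977 and 761 CPM in sum. The part of free RNA and of cells captured together in the differences of both cell types was not tested. In early spermatocytes the background was 23.6%, with only 34 WT cells. Pdha2 was lower in KO there (-0.70, -1.19 to -0.19) and Gapdh higher (2.03, 0.59 to 3.95), on 4 WT and 55 KO UMIs. In simulated counts of this class 8.41% of the unchanged genes passed the fold through counting error alone. These counts were drawn from the WT sums of 3636 genes, against 3960 detected in the data, and held no spread between cells. The 8.41% is therefore not read as the rate for genes detected through KO only, such as Gapdh.

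In late spermatocytes 6.76% of detected genes were past the fold and 1 of 6 detected members was. Gapdhs was lower in KO (-0.84, -0.98 to -0.70), at a level below that of Leydig-like cells in both libraries, and the log2 ratio was -0.65 without called doublets. Markers of condensing spermatids stood at 2.19% of their own level in WT and 1.12% in KO late spermatocytes, and their part in the result was not tested. Pgk2 had a log2 ratio of -0.44 and Pdha2 of 0.45 in this class, both short of the fold.

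In early round spermatids 6.36% of detected genes were past the fold, in mid round 11.2% and in late round 14.8%, and none of the 7 detected members was in any of them. In elongating spermatids the share was 17.1%, and 1 of 6 detected members was past the fold. Ldha was higher in KO (0.61, 0.50 to 0.72), while Ldhc had a log2 ratio of 0.42 (0.40 to 0.43). This class joins 2 clusters that differed in Ldhc. In the cluster led by Prss58 it was 4578 CPM in WT and 5247 in KO, and in that led by Prm1 1048 and 1368. The Prm1 cluster held 1013 of 1859 WT cells and 476 of 1165 KO cells. Only 10 of the 18 markers of the class were detected and 2-fold higher in it, against all 18 in the Prss58 cluster. Named by mean marker fold alone, the Prm1 cluster fell among the condensing spermatids. Within the Prss58 cluster Ldha was 99.3 CPM in WT and 133 in KO, and within the Prm1 cluster 33.9 and 51.9. In condensing spermatids 25.3% of detected genes were past the fold and none of 5 detected members.

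Over all germ cells pooled, where KO had more spermatogonia-like and fewer condensing cells, 21% of detected genes were past the fold. Gapdh was the only one of 8 detected members past it, with 19.3 CPM in the WT and 71.8 CPM in the KO pool (log2 ratio 1.90, 1.81 to 1.98). Gapdh had a UMI in 13.9% of WT and 29.2% of KO cells of the pool, so that it was detected through KO only. Within spermatogonia-like cells, which held 808 of its 1511 germ cell UMIs in WT and 4035 of 4749 in KO, its log2 ratio was 0.01 (-0.10 to 0.12).

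Pgk1 and Pdha1 were under the 25% detection limit and are described without a count. Pgk1 was higher in KO in all 5 spermatid classes, with log2 ratios of 1.26 (0.16 to 2.44) in early round, 1.47 (1.14 to 1.82) in mid round, 1.52 (0.95 to 2.11) in late round, 1.91 (1.51 to 2.33) in elongating and 2.35 (0.38 to 4.401) in condensing spermatids. It was higher in KO in each of the 2 clusters of mid round spermatids, at 4.59 against 11.6 CPM and 6.35 against 18.6, and in each of the 2 of elongating spermatids, at 3.97 against 16.1 and 3.09 against 8.69. Without called doublets it was 3.51 and 13.3 CPM in elongating spermatids. After thinning, 2.92% of WT and 6.97% of KO mid round spermatids had a Pgk1 UMI. Pdha1 had log2 ratios of 2.99 (1.47 to 4.97) in mid round, 4.09 (2.11 to 7.20) in late round and 2.14 (0.71 to 3.78) in elongating spermatids, on 2 to 6 WT UMIs.

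Markers of Leydig and Sertoli cells were also higher in KO spermatids. Of the 10 Leydig cell markers at least 8 had a UMI in each spermatid class, and their summed level lay between 7.04 and 15.8 CPM in WT and between 75.7 and 200 in KO spermatid classes. Against their level in Leydig-like cells this was 0.0151% to 0.0338% in WT and 0.125% to 0.331% in KO. Pgk1 stood at 13.3 CPM in KO elongating spermatids and at 27.4 in KO Leydig-like cells. The summed level of the 12 Sertoli cell markers, of which at least 8 had a UMI in each spermatid class, lay between 6.61 and 23.8 CPM in WT and between 38.7 and 80.9 in KO spermatid classes, and Pgk1 stood at 23.2 CPM in KO Sertoli-like cells. The part of Leydig and Sertoli cell RNA in the result was not tested.

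Other X-linked genes were set beside them. Among genes with at least 10 UMIs over both libraries and at least 1 in each, 730 X-linked genes had a median log2 ratio of 1.08 in mid round spermatids, against 0.05 for 17809 autosomal genes. The X-linked median was 0.61 in early round, 1.18 in late round, 1.31 in elongating and 1.19 in condensing spermatids, and the autosomal one between 0.01 and 0.24. In mid round spermatids 78.8% of X-linked and 19.6% of autosomal genes were at least 1.5-fold higher in KO. The log2 ratio of Pgk1 was above the median of X-linked genes in each of the 5 classes. In early round, late round and condensing spermatids that median lay within the interval of Pgk1, so the order was not resolved there. In condensing spermatids Pgk1 had only 5 UMIs in WT and 6 in KO. Its likest genes over the 30 points were Uba1 (r = 0.91), which activates ubiquitin, and Pja1 (r = 0.89), a ubiquitin ligase, and both also lie on the X chromosome. Those of Pdha1 were Bckdhb (r = 0.91), which encodes a subunit of the branched-chain keto acid dehydrogenase, and Pgpep1 (r = 0.90).

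For the other members the genes of most similar pattern over the 30 points, among 18756 compared, were Isca1 (r = 0.99) and Sdccag3 (0.98) for Pgk2, Cetn1 (0.99) and Adam32 (0.98) for Ldhc, and Acsl1 and Ppm1a (both 0.99) for Gapdhs. They were Plcz1, which encodes the sperm factor that activates the egg, and Mroh7 (both 0.99) for Aldoart1, and 1700019A02Rik (0.94) and Morn5 (0.93) for Pdha2. For the somatic forms they were Gm42918 (0.93) and 1700012J22Rik (0.92) for Ldha, Tmem256 and Tcf25 (both 0.96) for Gapdh, and Mlkl (0.87) and Glul (0.83) for Aldoa.

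A list of 61 further genes of glucose and lactate transport, glycolysis, pyruvate entry and the pentose phosphate path was counted by the same rule. Of 18 detected in spermatogonia-like cells 4 were lower in KO (Hk1, Fbp1, Pgam2 and Bpgm) and none higher, where 6.73% of all detected genes were lower and 2.68% higher. Hk1, Pgam2 and Bpgm were lower in KO Leydig-like cells as well. Of 8 in early spermatocytes 1 was lower (Dlat), of 22 in late spermatocytes none passed the fold, of 23 in early round spermatids 1 was higher (Slc2a3), of 25 in mid round and 20 in late round none passed, and of 16 in elongating and 13 in condensing spermatids 1 each was higher (Bsg and Pfkfb3). Over all detected genes the shares past the fold in either direction in these classes were those given above for the members, from 6.36% in early round to 25.3% in condensing spermatids.

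By stage, the list held partners of both patterns. Hk1, the hexokinase that starts glycolysis, was at 79.9 CPM in WT and 55 in KO late spermatocytes and at 1457 and 1349 in condensing spermatids, as Pgk2 and Gapdhs were highest there. Pgam2, a phosphoglycerate mutase, had 2 high points, 1151 and 1013 CPM in late spermatocytes and 1681 and 1685 in condensing spermatids. Fbp1, an enzyme of gluconeogenesis, was at 1014 and 899 CPM in late spermatocytes and 11 and 10.2 in condensing spermatids, as Ldhc was highest early. Slc16a7, a monocarboxylate transporter, was highest in mid round spermatids, at 575 and 587 CPM. Bsg, the partner of such transporters, stood in elongating spermatids at 64 CPM in WT against 144 for KO, a log2 ratio of 1.17.

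Mpc2, of the mitochondrial pyruvate carrier, stood at 1330 and 1247 CPM in early round and 134 and 176 in condensing spermatids. Pdhb, the partner subunit of Pdha1 and Pdha2, was at 305 and 213 CPM in early spermatocytes, 170 and 178 in spermatogonia-like cells and 10.2 and 8.51 in condensing spermatids. Ldhb, the heart-type lactate dehydrogenase subunit, was 782 CPM in WT and 706 in KO Leydig-like cells and at most 2.37 CPM in WT and 11.5 in KO germ cell classes. Ldhd, a D-lactate dehydrogenase, was at most 0.62 CPM in any germ cell class. In the remaining groups Bpgm, which makes 2,3-bisphosphoglycerate, was highest in mid round spermatids (293 and 234 CPM), Pgls, of the pentose phosphate path, was 185 and 173 CPM in condensing spermatids, and G6pd2, a retrogene of glucose-6-phosphate dehydrogenase, was highest in mid round spermatids at 61 and 62.6 CPM.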

How the data were processed

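Single-cell libraries of 1 WT and 1 Alkbh5-/- testis suspension were made with the GEXSCOPE kit. The authors deposited a table of raw UMI counts per gene and cell for each library. Per the labels, reads were handled with FastQC 0.11.7, fastp 1, STAR 2.5.3a, featureCounts 1.6.2 and Seurat. The methods name a human build (GRCh38 with Ensembl 92), while the deposited symbols are mouse symbols, so the mouse build behind the counts is not given in the sources used here. Multi-mapped reads of near-identical copies may be split or dropped by such counting. The tables hold more cells than the study describes, and its filter of over 500 genes per cell removed none (lowest 564).

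Cells were integrated with Seurat 5.3.0 in R 4.3.3 (2000 variable features without the members and pathway genes, 20 anchor dimensions, 30 principal components, resolution 0.3). A cluster took the class with at least 3 markers detected in 10% of its cells at 2-fold, by mean fold, unless another class led its top 10 genes by 2 or more. Scrublet, as run through scanpy 1.11.5, marked doublets (244 WT, 4.24%, and 345 KO, 4.92%) and kept in the main values. UMIs were summed per class and library. Intervals are exact (Poisson, Clopper-Pearson or conditional binomial, SciPy 1.17.1), at 95%, and cover counting error only. To compare shares of cells, cells were thinned to 5729 UMIs, which left out 362 WT and 914 KO cells. In simulated counts drawn from the WT sums, 200 genes changed 3-fold were recovered at 100% in spermatogonia-like and 99.5% in early spermatocyte-like cells. Changes nearer the limit of 1.5-fold were not simulated, so recovery at such ratios is not known. Likeness used genes with at least 100 UMIs, and names in the pathway list were given to the 2 genes with most germ cell UMIs per sublist or past the fold in at least 2 classes. Slc2a3, Dlat, Pfkfb3 and Aldoart2 were named after their values were seen. Coordinates and transcripts are from GENCODE vM21 (GRCm38) and promoter windows from RefSeq (GRCm38.p6), the first entry listed per gene, with annotated exon bases left out. Genes and lists were chosen with earlier results of these data known, and the spermatid markers come in part from the study's table of these libraries. Alternatives were fewer cells (over 1000 genes), other clustering, doublets removed, thinning, equal weights and transcript length. Others were the Leydig-like level subtracted from the testis forms, other totals, a fold of 2 and detection in 10% of cells. Free RNA itself was not estimated.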

Additional observations from a re-analysis of the deposited data

How the results depend on the processing

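No paired analysis was possible because each genotype has 1 library, and leaving out a replicate was not possible for the same reason. The gain of the testis share from spermatogonia-like to condensing spermatid-like cells, in percentage points, kept its sign in all 10 pairs and libraries under the settings tried, though the Aldo gain in WT had an interval of -5.88 to 8.284 and its sign was not resolved, and small gains came near 0 (Ldh in KO 0.24 with over 1000 genes and 0.4312 with the members among the clustering features, Aldo in WT 0.3997 without integration). The exception was subtraction of the Leydig-like level, when the Ldh pair gave -42.99 in WT and -6.155 in KO, and no value could be had for the Pdha pair in WT, whose forms were both at 0. Levels below 0 were set to 0. Ldhc in WT condensing spermatids, at 529 CPM against 1045 in Leydig-like cells, was 1 of them. Its share there was fixed at 0 by that floor, so -42.99 is not read as a reversal. That subtraction otherwise gave 10.51 (Pgk, WT), 30.73 (Pgk, KO), 81.86 and 89.02 (Gapdh, WT and KO) and 28.87 and 29.9 (Aldo, WT and KO). Removing called doublets gave 6.699 and 21.24 for Pgk (WT 3.281, KO 9.542 as reported), 78.95 and 88 for Gapdh, 23.81 and 38.96 for Pdha (13.33 and 25.07), 9.848 and 29.2 for Aldo (1.461 and 20.58), each WT first, and 3.928 for Ldh in KO (1.947). Thinning gave 4.545 for Ldh in WT (3.14), 70.97 and 73.88 for Gapdh and 9.453 for Aldo in WT. Equal weight per cell gave 73.49 and 76.55 for Gapdh and 12.22 for Pgk in KO. For Gapdh, resolution 0.8 gave 68.47 in WT and no integration 62.01 in WT and 69.49 in KO. Cells over 1000 genes gave 24.78 for Aldo in KO, and naming by mean fold alone, an alternative chosen after seeing the data, 9.623 and 29 for Aldo. Dividing by transcript length moved no gain beyond its interval.

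The count of combinations higher in KO (2) was 1 with over 1000 genes, resolution 0.8, no integration, equal weight per cluster, a ratio of 2, or without early spermatocytes (chosen after seeing the data), 0 with the members among the clustering features, and 9 with detection in 10% of cells. The count lower in KO (4) was 2 without integration or after thinning, 0 at a ratio of 2, and 7 with detection in 10% of cells. The median log2 ratio over the members in pooled germ cells was -0.106, and 0.037 with equal weight per cluster, under which 6 of 10 members kept their sign.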

Other observations

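The sex chromosomes as a whole differed between the libraries in spermatocytes and in the spermatid classes where Pgk1 was higher in KO. Pdha1 had 0 UMIs in early round spermatids of both libraries. The X-linked median log2 ratio was 0.417 in early and 0.615 in late spermatocytes. In late spermatocytes 51.4% of X-linked and 15.9% of autosomal genes were at least 1.5-fold higher in KO. X-linked genes took 0.199% of WT and 0.270% of KO UMIs in late spermatocytes, 1.08% and 1.51% in early round, 2.12% and 3.95% in mid round, 2.62% and 5.10% in late round, 2.56% and 4.95% in elongating and 2.03% and 3.50% in condensing spermatids. In elongating spermatids 407 of 494 X-linked genes were at least 1.5-fold higher in KO and 10 at least 1.5-fold lower. Without called doublets the X-linked median log2 ratio was 1.02 in mid round, 1.19 in late round, 1.35 in elongating and 1.19 in condensing spermatids.

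Y-linked genes lay on the same side. Their median log2 ratio was 0.25 in early round (238 genes), 0.92 in mid round (264), 1.40 in late round (35), 1.23 in elongating (37) and 1.55 in condensing spermatids (8). In early spermatocytes it was 0.49 (7 genes) and in late spermatocytes 0.31 (64). Many Y-linked genes of spermatids belong to families of near-identical copies, so their number is not a number of independent genes. In spermatogonia-like cells, before meiosis, the median was 0.22 for X-linked genes and -0.09 for Y-linked genes. With 1 library per genotype, the genotype and the library cannot be told apart.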
